A study of Mus musculus with 6 samples.

Results

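The 10 genes described here belong to the unfolded protein response, and all 10 were found by symbol among the 22239 genes of the deposited table. They are the stress sensor genes Ern1, Eif2ak3 and Atf6, the transcription factor genes Xbp1, Atf4 and Ddit3, and the endoplasmic reticulum (ER) chaperone and folding genes Hspa5, Hsp90b1, Pdia4 and Dnajb9. RNA had been sequenced in bulk from 3 epithelial populations of the lung of mice aged 8 weeks, with 2 libraries in each. Bronchioalveolar stem cells (BASC) were sorted as CCSP-mCherry+/SPC-YFP+, alveolar type 2 (AT2) cells as SPC-YFP+ and bronchiolar Club cells as CCSP-mCherry+, all from lung homogenates depleted of CD31 and CD45 cells. Both reporters are described as endogenous, and no treatment of the mice is given. The labels give neither strain nor sex. They also leave unsaid whether the paired libraries of a population are from different mice, and the p-values below therefore cover library-to-library spread, which may be technical.

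The unfolded protein response adjusts the folding capacity of the ER to the load of secretory proteins. IRE1, PERK and ATF6, the products of Ern1, Eif2ak3 and Atf6, sense unfolded protein in the ER lumen. IRE1 splices Xbp1 RNA, PERK phosphorylates a translation initiation factor and thereby favours translation of Atf4, and ATF6 is cut in the Golgi to release a transcription factor. The factors raise chaperone and degradation genes, and Ddit3, which encodes CHOP, follows when stress persists. AT2 cells secrete surfactant and Club cells secrete secretoglobins, so both load the ER. Splicing, phosphorylation and cleavage act after transcription, and gene-level values do not tell spliced from unspliced Xbp1 RNA.

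Summed marker levels followed the labels. The lists include Sftpc and Scgb1a1, whose reporters were used for the sort, so these 2 genes are no separate check of it. The summed level of 10 AT2 markers was 1048079 and 1052314 normalised read counts in BASC, 1127543 and 1211629 in AT2 cells, against 82828 and 103735 in Club cells. For 10 Club markers it was 105205 and 128968 in BASC, 21315 and 24040 in AT2 cells, against 1213518 and 1197288 in Club cells. The BASC sum was mostly Scgb1a1, Cbr2 and Cyp2f2. Other Club markers were far lower in BASC, such as Scgb3a2 (510 and 1175, against 59744 and 57857 in Club cells) and Muc5b (334 and 377, against 71552 and 62105). All 10 had a negative log2 fold change for BASC over Club cells and a positive one for BASC over AT2 cells. The sorting genes Sftpc and Scgb1a1 fitted their populations, with Sftpc at 290809 and 307458 in BASC, 301267 and 373742 in AT2 cells, against 240 and 224 in Club cells, and Scgb1a1 at 43993 and 58791 in BASC, 413 and 302 in AT2 cells, against 751642 and 760675 in Club cells. Column totals lay between 12733137 and 14090464 normalised counts, and the spacing of the low values put the reads behind them between 10126420 and 18193721 per library. Normalised read counts are taken here as gene-level read counts scaled with 1 factor per library and rounded to whole numbers. This was read from the values and is not stated by the sources, and the estimated reads rest on it. Of other cell types, 5 of 8 endothelial markers were in the table, with sums of 764 and 615 in BASC, 76 and 82 in AT2 cells, against 5584 and 5946 in Club cells. Most of this in BASC and Club cells was Kdr, with 689 and 517 in BASC, 1 and 0 in AT2 cells, against 5510 and 5892 in Club cells. Kdr reached 10 only in BASC and Club libraries, so no test of it against AT2 cells is given. The other endothelial markers had low values and went both ways. Pecam1 (3 and 6), Tek (6 and 12) and Egfl7 (2 and 4) were lowest in Club cells, and Vwf (63 and 32) was highest there. Of 8 markers each, 3 immune, 5 plasma cell and 6 mesenchymal markers were in the table; the immune sum was mostly Lyz2, which AT2 cells also express, the plasma cell sum was mostly Sdc1, and the mesenchymal sum reached 240 at most. Across genes, the paired libraries had a Pearson's r of 0.857 for BASC, 0.872 for AT2 and 0.925 for Club cells on the log2 scale (genes are not independent replicates). Over the 10 genes the replicates of a population lay apart by a median of 0.18 for BASC, 0.25 for AT2 and 0.05 for Club cells on the log2 scale, whatever the sign.

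Hspa5 and Hsp90b1 carried a full ER stress response element upstream of their RefSeq start, and they are shown for that reason, with Pdia4 as a folding gene without one. Of the 10 genes, 9 matched RefSeq's promoter table (GRCm38.p6), and the 250 bases before the RefSeq start were searched on both strands; the deposited starts differ from RefSeq's, and the parts of the Hspa5 and Hsp90b1 windows nearest the RefSeq start lie within the deposited gene spans. The Hspa5 element itself lies within the deposited span of Hspa5, and both Hsp90b1 elements lie outside that of Hsp90b1. The element searched for was CCAAT and CCACG with 9 bases of any kind between them. Capitals mark it in the first 2 sequences, and in Pdia4 they mark CCAAT boxes on either strand. The sequences run 5′ to 3′ along the gene.
Hspa5, chr2:34771840-34772089, plus strand: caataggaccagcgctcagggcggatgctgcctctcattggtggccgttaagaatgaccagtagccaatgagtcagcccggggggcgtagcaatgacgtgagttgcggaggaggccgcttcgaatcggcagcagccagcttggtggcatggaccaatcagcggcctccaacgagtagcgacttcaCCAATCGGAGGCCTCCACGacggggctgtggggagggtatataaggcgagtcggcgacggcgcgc
Hsp90b1, chr10:86705445-86705694, minus strand: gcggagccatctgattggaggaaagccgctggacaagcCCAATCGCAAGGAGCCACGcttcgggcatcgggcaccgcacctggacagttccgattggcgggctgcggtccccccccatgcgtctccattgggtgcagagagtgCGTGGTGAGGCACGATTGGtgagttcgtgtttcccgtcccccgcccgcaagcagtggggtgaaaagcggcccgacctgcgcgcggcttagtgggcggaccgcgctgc
Pdia4, chr6:47813513-47813762, minus strand: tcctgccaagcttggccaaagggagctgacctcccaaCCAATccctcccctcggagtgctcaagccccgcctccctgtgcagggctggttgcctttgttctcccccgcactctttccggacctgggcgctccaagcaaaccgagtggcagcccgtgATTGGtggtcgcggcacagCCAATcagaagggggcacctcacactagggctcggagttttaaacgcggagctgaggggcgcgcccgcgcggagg
Hspa5 held the element once, between 65 and 47 bases before the start. Hsp90b1 held it 2 times, at 212 to 194 bases on the gene's strand and at 107 to 89 bases on the other strand, without overlap. Of all 32851 promoter windows of this length, 0.113% held the element, and 2 of the 9 windows of the genes described here did. These 9 genes were listed as genes of the response that the element is named for, so the shares are no test of enrichment. The other spelled motifs were ATTGG and CCACG with 1 base between them, known as ERSE-II and present in 0.0304% of windows, TGACGTGG, the core that XBP1 binds, in 0.563%, and TGATGNAA, an ATF4 and C/EBP composite, in 3.45%. None of these 3 was in the 9 windows. CCAAT alone, which is part of the full element, was in 7 of the 9 and in 33.8% of all windows. A match describes letters, not a bound site.

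No difference of a sensor gene between the populations was called. Ern1 (ENSMUSG00000020715, GRCm38 chromosome 11, 106394650 to 106487836, minus strand) encodes IRE1α, the kinase and RNase that splices Xbp1. It had 1145 and 1248 normalised counts in BASC, 1372 and 1530 in AT2 cells, against 1085 and 1075 in Club cells. The AT2 libraries were the highest, and no library of one population overlapped those of another. The log2 fold change of AT2 over Club cells was 0.42 ± 0.15 (SE, n = 2 each, limma adjusted p = 0.0923), and that of BASC over AT2 cells was -0.28 ± 0.15 (limma adjusted p = 0.486). Neither was called, at an adjusted p under 0.05 over all 17721 genes tested.

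Atf6 (ENSMUSG00000026663, chromosome 1, 170704674 to 170867771, minus strand) lay in the same order as Ern1. Its normalised counts were 1180 and 1221 in BASC, 1401 and 1298 in AT2 cells, against 1118 and 1073 in Club cells. The populations did not overlap, yet the difference between AT2 and Club cells, 0.30 ± 0.14 on the log2 scale, was not called (limma adjusted p = 0.206). Eif2ak3 (ENSMUSG00000031668, chromosome 6, 70844515 to 70905245, plus strand), which encodes PERK, had the opposite order. It had 784 and 760 in BASC, 661 and 815 in AT2 cells, against 947 and 920 in Club cells, which were the highest libraries. Its log2 fold change was -0.27 ± 0.18 for BASC over Club cells and -0.35 ± 0.18 for AT2 over Club cells, and neither was called (limma adjusted p = 0.412 and 0.244).

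The transcription factor genes followed no common order. Xbp1 (ENSMUSG00000020484, chromosome 11, 5520659 to 5525893, plus strand), the target of IRE1 and an inducer of degradation and secretory genes, had 1443 and 1700 in BASC, 1912 and 1640 in AT2 cells, against 1638 and 1444 in Club cells. BASC and Club libraries overlapped, and the interval of their log2 difference ran between -0.35 and 0.40. Atf4 (ENSMUSG00000042406, chromosome 15, 80255184 to 80257540, plus strand), the effector of PERK, had 3258 and 2283 in BASC, 2186 and 2373 in AT2 cells, against 2700 and 2441 in Club cells. The BASC replicates lay further apart than the means of any 2 populations. No difference of Xbp1 or Atf4 was called (limma adjusted p between 0.460 and 0.947 for Xbp1 and between 0.596 and 0.827 for Atf4).

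Ddit3 (ENSMUSG00000025408, chromosome 10, 127290774 to 127296288, plus strand), which encodes the stress factor CHOP, had the lowest level per kilobase of exon of the 10 genes. Its values were 248 and 244 normalised counts in BASC, 150 and 302 in AT2 cells, against 68 and 139 in Club cells, which rests on an estimated 83 and 134 reads in the Club libraries. Both Club values lay below all others. Its mean was 2.38-fold higher in BASC than in Club cells (log2 fold change 1.33 ± 0.50, 95% interval 0.16 to 2.50, limma adjusted p = 0.151) and 2.18-fold higher in AT2 than in Club cells (1.12 ± 0.50, limma adjusted p = 0.181), and neither passed. The gene overlaps the end of Mars and the start of Gm4189, both on the other strand. The strand setting of the counting is not given, so shared reads cannot be told apart. GENCODE M21 also holds a second gene named Ddit3 on the same strand, 127290829 to 127293753, within this span. It has no values among the deposited genes, and its part in the Ddit3 values was not tested.

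**Figure D1:**
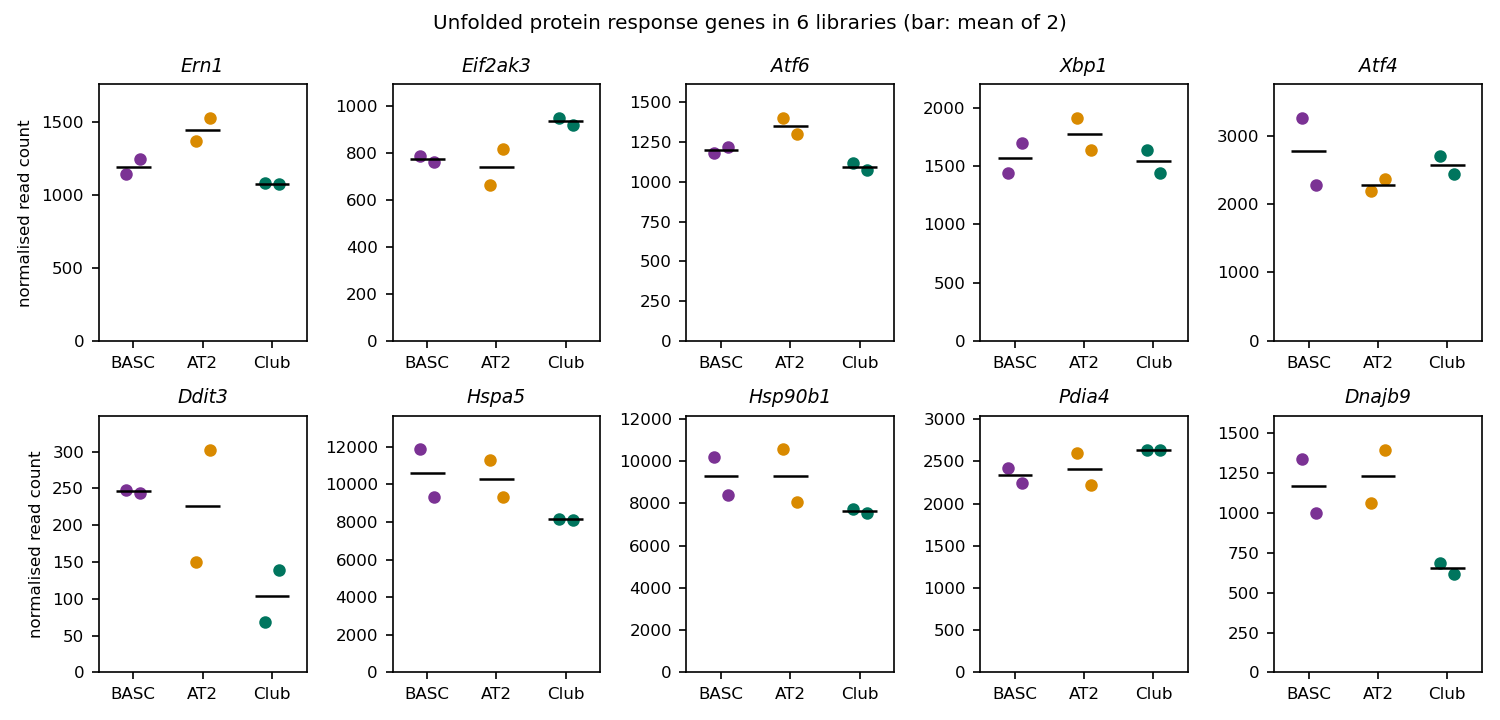
Normalised read counts (vertical axes, from 0, each gene on its own scale) of the 10 unfolded protein response genes in BASC, AT2 and Club libraries; points are the 2 libraries of a population and bars their mean. Both Club libraries lie below all others for Ern1, Atf6, Ddit3, Hspa5, Hsp90b1 and Dnajb9, and above all others for Eif2ak3 and Pdia4.

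Among the folding genes, the chaperone pair Hspa5 and Hsp90b1 had the highest levels. Per kilobase of exon annotated in GENCODE M21, the mean level over the 6 libraries was 2289 normalised counts for Hspa5 and 2170 for Hsp90b1. It was 1077 for Atf4, 1026 for Pdia4, 502 for Xbp1 and 399 for Dnajb9. The 3 sensors and Ddit3 were the lowest on this scale, at 152 for Ern1, 135 for Eif2ak3, 132 for Atf6 and 112 for Ddit3.

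Hspa5 (ENSMUSG00000026864, chromosome 2, 34771970 to 34777547, plus strand) encodes BiP, the main Hsp70 chaperone of the ER, which also holds the sensors inactive. It had 11855 and 9352 in BASC, 11296 and 9319 in AT2 cells, against 8169 and 8094 in Club cells. BASC and AT2 libraries overlapped, and both Club libraries lay below them. The log2 fold change was 0.37 ± 0.15 for BASC over Club cells (95% interval 0.03 to 0.72, limma adjusted p = 0.171) and 0.34 ± 0.15 for AT2 over Club cells (limma adjusted p = 0.176).

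Hsp90b1 (ENSMUSG00000020048, chromosome 10, 86690840 to 86705509, minus strand), the ER member of the Hsp90 family, had 10176 and 8399 in BASC, 10555 and 8076 in AT2 cells, against 7749 and 7534 in Club cells. Again both Club libraries were the lowest, and the differences of 0.27 ± 0.16 from each other population were not called (limma adjusted p = 0.344 and 0.299). The gene overlaps a pseudogene and a processed transcript with low values. In each of BASC and AT2, the library with more Hspa5 also had more Hsp90b1. Pdia4 (ENSMUSG00000025823, chromosome 6, 47796141 to 47813430, minus strand), a protein disulfide isomerase, had 2421 and 2251 in BASC, 2604 and 2221 in AT2 cells, against 2642 and 2631 in Club cells. Here the Club libraries were the highest, with a log2 fold change of -0.18 ± 0.13 for BASC over Club cells that was not called (limma adjusted p = 0.485).

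Dnajb9 (ENSMUSG00000014905, chromosome 12, 44205559 to 44210326, minus strand) encodes ERdj4, a co-chaperone of BiP that takes part in ER-associated degradation and represses IRE1. It had 1340 and 1002 normalised counts in BASC, 1065 and 1397 in AT2 cells, against 684 and 620 in Club cells. BASC and AT2 libraries overlapped, and both Club libraries were well below them. Dnajb9 was 1.89-fold higher in AT2 than in Club cells (log2 fold change 0.90 ± 0.21, 95% interval 0.40 to 1.41, limma adjusted p = 0.0267), the 1 call among the 10 genes in any pairwise comparison. It was 1.80-fold higher by its means in BASC than in Club cells (0.83 ± 0.21, 95% interval 0.33 to 1.33, limma adjusted p = 0.0505), which just missed the threshold. The call in AT2 against Club cells was lost without AT2 replicate 2 (adjusted p = 0.124), without Club replicate 1 (0.0748), without Club replicate 2 (0.125) and when limma's variance trend was left out (0.151). In BASC against Club cells the same gene passed in 4 of 16 alternative settings, with limma adjusted p between 0.0265 and 0.233. The difference between BASC and AT2 cells was -0.07 ± 0.21 (95% interval -0.58 to 0.43, limma adjusted p = 0.929).

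**Figure D2:**
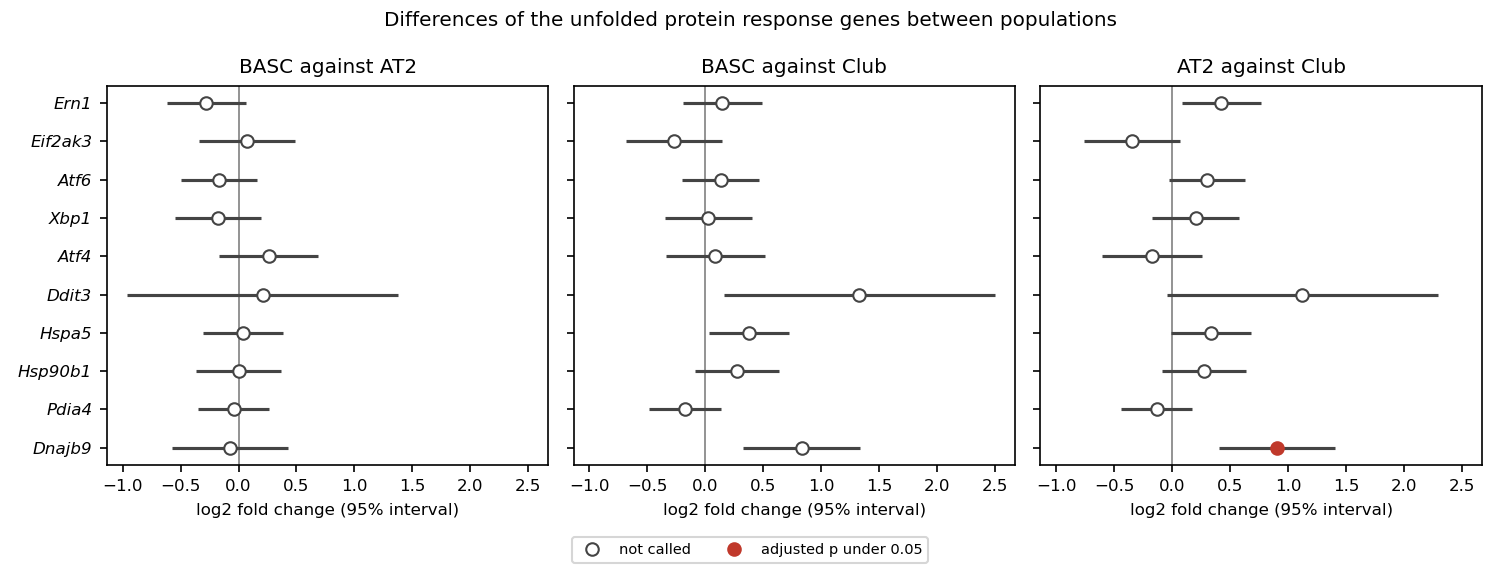
Log2 fold changes (horizontal axes) of the 10 genes in BASC against AT2, BASC against Club and AT2 against Club cells, with 95% intervals of the limma fit; filled points passed an adjusted p under 0.05. Dnajb9 in AT2 against Club cells, at 0.90, is the filled point, and the intervals in BASC against AT2 cells all include 0.

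In BASC against AT2 cells, limma called 0 of the 10 genes, and 0 had an unadjusted p under 0.05; of all genes tested 0.632% were called and 13.2% had such a p. For Ern1 and Atf6 both BASC libraries lay below both AT2 libraries, and for 0 of the 10 above; of all genes 18.3% were wholly above and 18.9% wholly below. Their log2 fold changes lay between -0.28 and 0.26, with a median of -0.02 beside 0 over all genes. The widest 95% interval was that of Ddit3, -0.96 to 1.38, and that of Hspa5 was -0.31 to 0.38. The 10 genes' median absolute log2 fold change was 0.12, against 0.30 for the 9395 tested genes with a mean of at least 100. The same medians were 0.22 against 0.41 in BASC against Club cells and 0.32 against 0.48 in AT2 against Club cells. The 9395 genes were not matched to the 10 for level, and most of the 10 lie far above 100. The 12 dissociation and immediate-early genes, which respond within minutes to handling, summed to 98422 and 110181 in BASC, 61289 and 81140 in AT2 cells, against 69035 and 70321 in Club cells. Of them Egr1 was called higher in BASC than in AT2 cells (log2 fold change 0.99 ± 0.11, limma adjusted p = 0.0141), and 8 of 12 had an unadjusted p under 0.05. Their part in the values of the 10 genes was not tested.

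In BASC against Club cells limma called 0 of the 10, with 3 at an unadjusted p under 0.05 (Ddit3, Hspa5 and Dnajb9), and 11.2% of all genes tested were called, with 24.6% at that unadjusted p. In 6 of the 10 both BASC libraries lay above both Club libraries, and in 2 below; of all genes 23.9% were wholly above and 30.1% wholly below. The sign was positive in 8 genes and in 6 under quantile normalization or with equal totals after removal of ribosomal and mitochondrial RNA, where Xbp1 and Atf4 turned. The median log2 fold change was 0.14, beside -0.10 over all genes. Of the 12 dissociation and immediate-early genes, all 12 had a positive log2 fold change for BASC over Club cells, 7 had an unadjusted p under 0.05, and Egr1, Fosb and Junb were called higher (limma adjusted p = 0.000668, 0.0190 and 0.0221). Their part in the values of the 10 genes was not tested here either.

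In AT2 against Club cells 1 of the 10 was higher and 0 lower, where 18.1% of all genes tested were called, 8.42% higher and 9.71% lower. An unadjusted p under 0.05 was reached by 2 of the 10, Ern1 and Dnajb9, and by 30.5% of all genes. The 7 genes with both AT2 libraries above both Club libraries were Ern1, Atf6, Xbp1, Ddit3, Hspa5, Hsp90b1 and Dnajb9, and the other 3, Eif2ak3, Atf4 and Pdia4, had both below; of all genes 26% were wholly above and 32% wholly below. The median log2 fold change was 0.29, beside -0.10 over all genes. The comparisons share libraries, so their values are not independent. Against the midpoint of AT2 and Club cells, limma called 0 of the 10 in BASC, with 0 at an unadjusted p under 0.05 and 1.61% of all genes called and 15.1% at that unadjusted p; the values lay between -0.11 for Pdia4 and 0.77 ± 0.43 for Ddit3.

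Ern2 and Agr2, known from mucus-secreting epithelium, were detected in Club cells and listed at 0 in the other populations. Ern2 (ENSMUSG00000030866, chromosome 7, 122169940 to 122186204) encodes IRE1β, the paralog of IRE1α found in mucosal epithelium. It was listed at 0 in both BASC and both AT2 libraries, against 248 and 292 in Club cells. With a floor of 3 reads per library, averaged over the group, it was at least 79.8-fold lower in BASC and at least 98.1-fold lower in AT2 than in Club cells. It passed the filter on low values only through the Club libraries, so no test of this difference is given. Per kilobase of exon, Club cells had 91.1 normalised counts of Ern2 beside 132 of Ern1.

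Agr2 (ENSMUSG00000020581, chromosome 12, 35992907 to 36004087), a disulfide isomerase family member needed for mucin folding in the mouse gut, was also listed at 0 in all BASC and AT2 libraries, against 332 and 309 in Club cells. It was at least 94.8-fold lower in BASC and at least 117-fold lower in AT2 than in Club cells, and it too passed the filter only through the Club libraries. Markers of goblet cells, in which both genes are known, moved with them: the 7 goblet markers summed to 162 and 284 in BASC, 208 and 89 in AT2 cells, against 13842 and 18745 in Club cells. The defining marker Muc5ac had 25 and 40 in BASC, 0 and 0 in AT2 cells, against 1370 and 1665 in Club cells. It passed the filter only through BASC and Club libraries, so no test of it between BASC and AT2 cells is given. For BASC over AT2 cells the log2 fold change of the 7 goblet markers was positive in 4 and negative in 2. Tff2 was at 0 in all BASC and AT2 libraries, against 1150 and 1390 in Club cells. The 8 ciliated markers summed to 1029 and 837 in BASC, 876 and 872 in AT2 cells, against 5953 and 5982 in Club cells. The part of these cells in the result was not tested, and in bulk samples fewer cells of a type and less RNA per cell cannot be told apart.

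**Figure D3:**
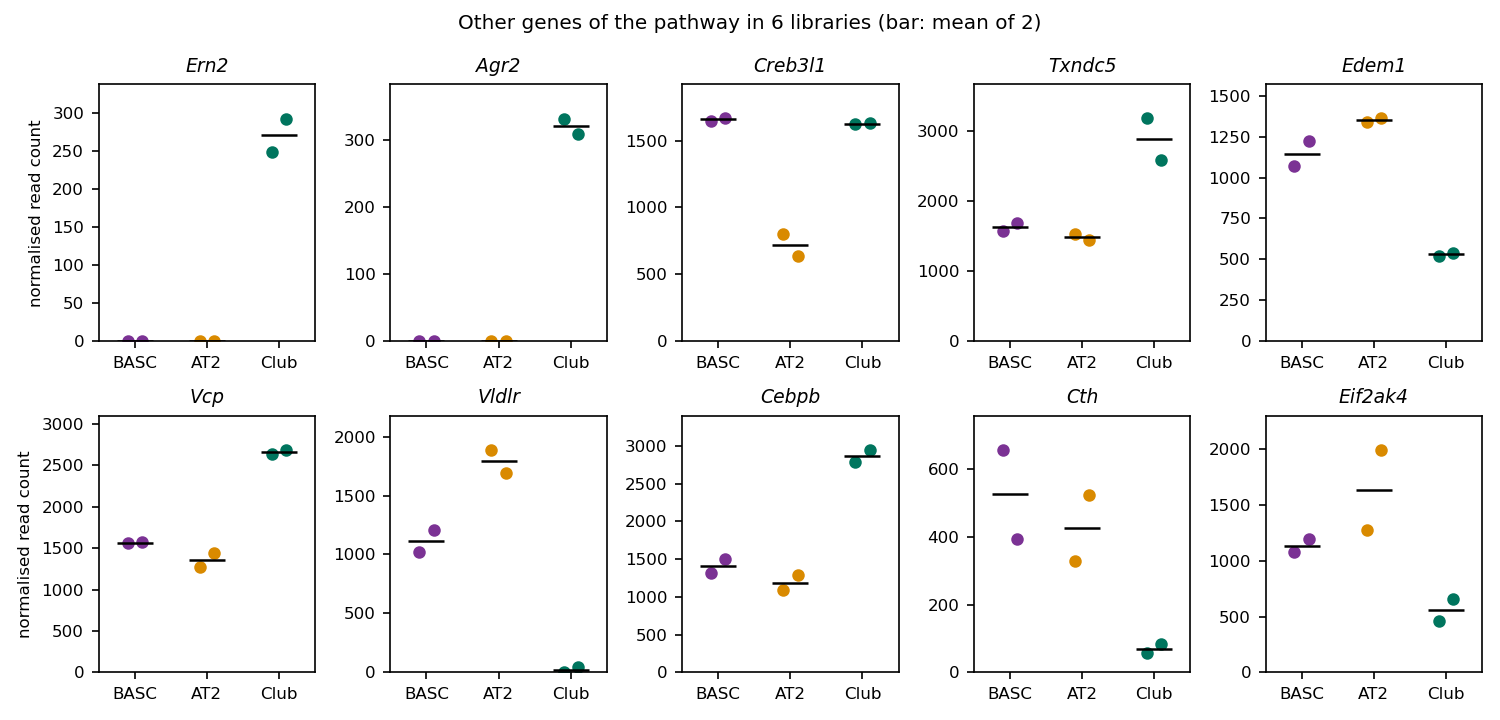
Normalised read counts (vertical axes, from 0, each gene on its own scale) of 10 further genes of the pathway in BASC, AT2 and Club libraries; points are the 2 libraries of a population and bars their mean. Ern2 and Agr2 are at 0 outside Club cells, Creb3l1 is lower in AT2 cells than in the other populations, and Vldlr is near 0 in Club cells.

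Among 15 other sensors and regulators tested, of 16 listed, Creb3l1 was called between BASC and AT2 cells. It encodes OASIS, a membrane-bound factor of the ATF6 family that is released by the same Golgi proteases. It had 1649 and 1669 in BASC, 799 and 635 in AT2 cells, and 1625 and 1630 in Club cells. Its BASC mean was 2.31-fold that of AT2 cells (log2 fold change 1.22 ± 0.16, limma adjusted p = 0.0272), and AT2 cells were 2.27-fold lower than Club cells (-1.19 ± 0.16, limma adjusted p = 0.00265). BASC and Club values were close, with a log2 fold change of 0.03 ± 0.16. The call between BASC and AT2 cells was lost without BASC replicate 1 (adjusted p = 0.182), BASC replicate 2 (0.251) or AT2 replicate 2 (0.0782) and without limma's variance trend (0.196).

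The kinase gene Eif2ak4 encodes GCN2, which senses amino acid shortage and phosphorylates the same initiation factor as PERK. It had 1080 and 1194 in BASC, 1275 and 1998 in AT2 cells, against 463 and 656 in Club cells. It was 2.03-fold higher in BASC than in Club cells (log2 fold change 1.04 ± 0.26, limma adjusted p = 0.0475) and 2.92-fold higher in AT2 than in Club cells (1.53 ± 0.26, limma adjusted p = 0.00747). The BASC call was lost without BASC replicate 1 (adjusted p = 0.150), BASC replicate 2 (0.207) or Club replicate 1 (0.240), with a pseudocount of 0.5 (0.0537), without the filter on low values (0.0601), with equal totals (0.0637) and without the variance trend (0.212). In all, 1 of these 15 regulators was higher and 0 lower in BASC than in AT2 cells, where 0.632% of all genes were called. Ern2 is left out of the calls that follow, since no test of it is given. Of the other regulators, only Eif2ak4 was called in BASC against Club cells, where 11.2% of all genes were called. In AT2 against Club cells only Eif2ak4 (higher) and Creb3l1 (lower) were called, where 18.1% of all genes were.

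Of 20 further ER chaperones and oxidative folding enzymes, limma called 0 between BASC and AT2 cells, with 0 at an unadjusted p under 0.05. Over all genes 0.632% were called there and 13.2% had such a p. It called 0 higher in BASC or AT2 than in Club cells. Agr2 is left out of the lower calls, since it passed the filter only through the Club libraries. Of the others, only Txndc5 was called lower in BASC, and only Txndc5 and Pdia5 in AT2 cells, both disulfide isomerases. These calls do not exceed the 11.2% and 18.1% called over all genes. Txndc5 had 1567 and 1682 in BASC, 1531 and 1437 in AT2 cells, against 3185 and 2591 in Club cells. Its mean was 1.78-fold lower in BASC than in Club cells (-0.82 ± 0.15 on the log2 scale, limma adjusted p = 0.0142) and 1.95-fold lower in AT2 than in Club cells (-0.95 ± 0.15, limma adjusted p = 0.00487). The BASC call was lost without BASC replicate 1 (adjusted p = 0.080), BASC replicate 2 (0.0682) or Club replicate 1 (0.126). Pdia5 had 72 and 70 in BASC, 16 and 56 in AT2 cells, against 309 and 190 in Club cells. Its call in AT2 against Club cells (log2 fold change -2.97 ± 0.70, limma adjusted p = 0.0269) held without AT2 replicate 2 (-3.84 on the log2 scale) and was lost without any other library, with adjusted p of 0.0550 and 0.0547 without a BASC library, 0.0650 without AT2 replicate 1 (-2.09 on the log2 scale), and 0.194 and 0.0758 without Club replicates 1 and 2.

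The 16 genes of ER-associated degradation, which returns misfolded proteins to the cytosol for the proteasome, mostly gave no call. Limma called 0 between BASC and AT2 cells, with 1 at an unadjusted p under 0.05, beside 0.632% and 13.2% of all genes. It called 1 higher and 3 lower in BASC than in Club cells, where 11.2% of all genes were called, and 1 higher and 1 lower in AT2 than in Club cells, a smaller share than the 18.1% over all genes. Edem1, a lectin that delivers misfolded glycoproteins to degradation, had 1069 and 1223 in BASC, 1339 and 1365 in AT2 cells, against 521 and 538 in Club cells. It was 2.16-fold higher in BASC (log2 fold change 1.11 ± 0.16, limma adjusted p = 0.00533) and 2.55-fold higher in AT2 than in Club cells (1.35 ± 0.16, limma adjusted p = 0.00138), and both calls held without each of the 6 libraries. The BASC call was lost without the variance trend (adjusted p = 0.0771).

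Vcp, which encodes the ATPase p97 that pulls proteins out of the ER membrane, had the reverse order. It had 1558 and 1577 in BASC, 1275 and 1446 in AT2 cells, against 2642 and 2693 in Club cells. Its mean was 1.70-fold lower in BASC than in Club cells (-0.77 ± 0.13 on the log2 scale, limma adjusted p = 0.0117) and 1.96-fold lower in AT2 than in Club cells (-0.97 ± 0.13, limma adjusted p = 0.00262). Without 1 library the BASC call was lost for BASC replicates 1 and 2 (adjusted p = 0.0607 and 0.0617) and Club replicates 1 and 2 (0.0789 and 0.0881).

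The ER lectins Erlec1 and Os9, which bind glycoproteins bound for degradation, were also lower in BASC than in Club cells. Erlec1 had 288 and 319 in BASC, 405 and 314 in AT2 cells, against 578 and 624 in Club cells, and its log2 fold change for BASC over Club cells was -0.98 ± 0.24 (limma adjusted p = 0.0395, or 0.0559 with the replicate number as a block). Os9 had 2269 and 2170 in BASC, 2793 and 2757 in AT2 cells, against 3182 and 2937 in Club cells, with -0.46 ± 0.12 (limma adjusted p = 0.0463, or 0.0548 with the block). Neither call was stable. For Erlec1 the adjusted p was 0.121 without BASC replicate 1, 0.0991 without BASC replicate 2, and 0.223 and 0.289 without Club replicates 1 and 2. For Os9 it was 0.101 and 0.140 without BASC replicates 1 and 2, 0.0564 and 0.0566 without AT2 replicates 1 and 2, and 0.362 and 0.185 without Club replicates 1 and 2.

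**Figure D4:**
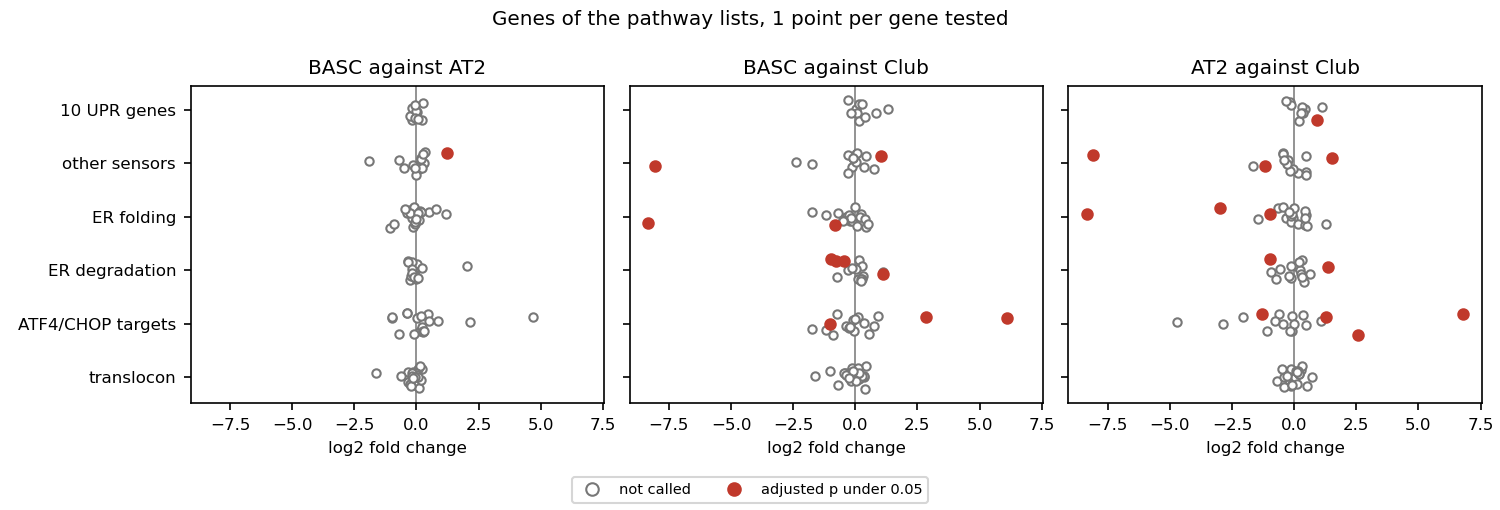
Log2 fold changes (horizontal axes) of the 10 unfolded protein response genes and of 5 further lists of the pathway, 91 genes, in the 3 pairwise comparisons; each point is a gene, filled where limma's adjusted p was under 0.05, and its height within a list has no meaning. Between BASC and AT2 cells Creb3l1 is the filled point, and in both comparisons with Club cells Ern2 and Agr2 lie at the low end and Vldlr at the high end. Ern2 and Agr2 passed the filter on low values only through the Club libraries, and their filled points are not used as tests.

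Of 18 known targets of ATF4 and CHOP, limma called 0 between BASC and AT2 cells, with 2 at an unadjusted p under 0.05. The shares over all genes were 0.632% and 13.2%. The 2 genes were Atf3 and Slc7a11. Atf3 is also among the 12 dissociation and immediate-early genes and was counted there too. Slc7a11, at 0 and 1 in AT2 cells, reached 10 only in BASC and Club libraries, so its p is not used as a test. Limma called 2 higher and 1 lower in BASC than in Club cells, and 3 higher and 1 lower in AT2 than in Club cells. Over all genes 11.2% and 18.1% were called there. Vldlr, a lipoprotein receptor, had 1024 and 1204 in BASC, 1890 and 1694 in AT2 cells, against 5 and 42 in Club cells. Its mean was 47.4-fold higher in BASC (log2 fold change 6.11 ± 0.79, limma adjusted p = 0.00346) and 76.3-fold higher in AT2 than in Club cells (6.80 ± 0.79, limma adjusted p = 0.00134). These folds rest on which Club library is used: without Club replicate 1 the log2 fold change was 4.69 for BASC and 5.38 for AT2 cells, and without Club replicate 2 it was 7.53 for BASC and 8.22 for AT2 cells. Without BASC replicate 1 or 2 the BASC call was lost (adjusted p = 0.0533 and 0.0597).

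Cth, an enzyme of cysteine synthesis, had 658 and 395 in BASC, 328 and 523 in AT2 cells, against 58 and 83 in Club cells. It was 7.47-fold higher in BASC (log2 fold change 2.86 ± 0.40, limma adjusted p = 0.00489, or 0.0526 without BASC replicate 1) and 6.04-fold higher in AT2 than in Club cells (2.56 ± 0.40, limma adjusted p = 0.00494). Sesn2, a stress-induced inhibitor of mTORC1 signalling, had 514 and 648 in BASC, 609 and 924 in AT2 cells, against 285 and 334 in Club cells. It was called in AT2 against Club cells (log2 fold change 1.28 ± 0.27, limma adjusted p = 0.0171), though not without AT2 replicate 2 (0.0821) or Club replicate 1 (0.0865).

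Cebpb, a transcription factor that pairs with ATF4 and CHOP, went the other way. It had 1316 and 1501 in BASC, 1086 and 1284 in AT2 cells, against 2788 and 2953 in Club cells. Its mean was 2.04-fold lower in BASC than in Club cells (-1.03 ± 0.15 on the log2 scale, limma adjusted p = 0.00579, or 0.0504 without BASC replicate 1) and 2.42-fold lower in AT2 than in Club cells (-1.28 ± 0.15, limma adjusted p = 0.00138). Over the 18 targets the median log2 fold change was 0.19 for BASC over AT2 cells, -0.09 for BASC over Club cells and -0.13 for AT2 over Club cells.

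The 22 genes of the translocon and of signal peptide processing, through which secretory proteins enter the ER, gave no call in any comparison. With limma 0 of 22 passed between BASC and AT2 cells, with 0 at an unadjusted p under 0.05, and 0 passed in BASC against Club and AT2 against Club cells, with 3 at an unadjusted p under 0.05 in each. Of all genes 0.632% were called between BASC and AT2 cells, and 13.2% had such an unadjusted p. In the comparisons with Club cells 11.2% and 18.1% were called, and 24.6% and 30.5% had such an unadjusted p. Their median log2 fold changes were -0.03 for BASC over AT2, -0.12 for BASC over Club and 0.06 for AT2 over Club cells. In BASC against the midpoint of AT2 and Club cells limma called 0 of the 91 genes of the 5 lists. Over all genes 1.61% were called and 15.1% had an unadjusted p under 0.05. That p was reached by 2 of 15 regulators, 2 of 20 folding and 4 of 16 degradation genes. It was also reached by 5 of 18 ATF4 targets and 1 of 22 translocon genes. The regulator count includes Ern2 (-4.04 on the log2 scale) and the folding count includes Agr2 (-4.16). Both passed the filter only through the Club libraries, so they are not used as tests, and these 2 counts are no result beside the 15.1%.

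Across the 6 libraries, Hspa5 and Hsp90b1 had a Pearson's r of 0.97 on the log2 scale. A part of the element printed above in this was not tested. Among 2179 protein-coding genes with a mean of at least 1000, Hspa5 was most like Atl3 (r = 0.99), Zbtb44 (0.98), Sec63 (0.97), Hsp90b1 (0.97) and Pnn (0.97). Among the genes most like Xbp1 were Fam129a (r = 0.94), Ythdf3 (0.92), Dhx16 (0.90) and Suco (0.89). Sec63 encodes a translocon subunit that recruits BiP to incoming chains. These values describe 6 libraries that share their 3 populations.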

How the data were processed

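RNA was sequenced in bulk from 6 sorted samples, 2 per population, after library preparation with a stranded kit that starts from picograms of total RNA, per the labels. Per the submitters' processing notes, FastQC, STAR 2.4.0a and featureCounts 1.4.5-p1 of Subread were used with mm10 (GRCm38); the sources do not state how values were normalized, which annotation release served or whether counting used strand. The deposited values are a signal that the authors made from read counts with 1 scaling factor per sample, rounded to whole numbers; this reading comes from the values. Exact reads were not recovered, so no count model was run.

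limma 3.58.1 (R 4.3.3) was fitted with an intensity trend to log2(value + 1) of all 6 samples, over the 17721 genes that reached 10 in 2 or more samples. Tests were two-sided, with Benjamini-Hochberg adjustment over these genes and a call at an adjusted p under 0.05. Fold changes on this scale understate low genes. For the 13 symbols on more than 1 gene, the one of highest mean was taken. The script was tested on simulated data.

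The members and lists were chosen with earlier results of these data known. Named were all 10 members, Ern2, Agr2, up to 4 called genes per further list and comparison by largest fold change, and the 5 genes most like Xbp1 and Hspa5, of which 1 is not reported here. Alternatives covered the pseudocount, filter, normalization, variance model, replicate block and each library left out. Replicate numbers are not said to pair samples.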

Additional observations from a re-analysis of the deposited data

How the results depend on the processing

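Of the 10 genes, the count called between BASC and AT2 cells was 0 in all 16 alternatives, and so was that for BASC against the midpoint in each alternative run for it. In BASC against Club cells it was 1, Dnajb9, with a pseudocount of 10, with a filter of at least 50 in at least 2 samples, with quantile normalization and with robust variance moderation, and 0 in the others. In AT2 against Club cells it was 0 without the variance trend and lay between 0 and 1 with a library left out. Without the variance trend the calls of Eif2ak4, Txndc5, Edem1, Erlec1, Vcp, Os9 and Cebpb in BASC against Club cells and of Eif2ak4, Creb3l1, Pdia5, Txndc5, Vcp and Sesn2 in AT2 against Club cells were also lost; the cause was not tested. Signs of uncalled differences turned as follows. For BASC over AT2 cells, Sftpc was 0.17 with quantile normalization and Pdia4 was 0.010 with equal totals; with a library left out Hspa5 ran from -0.13 to 0.21, Hsp90b1 from -0.19 to 0.195, Pdia4 from -0.16 to 0.072, Dnajb9 from -0.28 to 0.14, Ddit3 from -0.29 to 0.71 and Eif2ak3 from -0.078 to 0.22. For BASC over Club cells, Xbp1 was -0.036 with quantile normalization and -0.070 with equal totals, and Atf4 was -0.024 and -0.0095; with a library left out Xbp1 ran from -0.092 to 0.14 and Atf4 from -0.17 to 0.34. The median over all genes for BASC over Club cells was -0.10, 0.01 with quantile normalization and -0.19 with equal totals. Deviations of same-numbered replicates had r between 0.0060 and 0.0118 over all genes and between 0.057 and 0.092 over the 9395 genes with a mean of at least 100, under the 0.1 asked for to treat them as pairs, and with the replicate block 0, 0 and 1 of the 10 genes were called in the 3 pairwise comparisons; among the further genes named, the block ended the calls of Erlec1 and Os9 and no other. Over all genes, 112 were called between BASC and AT2 cells, against 3 without BASC replicate 1 and 4 without BASC replicate 2. In BASC against Club cells 1983 were called, against 947 to 983 without a BASC library and 853 to 912 without a Club library. In AT2 against Club cells 3212 were called, against 2023 to 2141 without an AT2 library and 1539 to 1603 without a Club library, so the shares over all genes fall as well. Ddit3 rests on the fewest reads, and 2 libraries per population limit every interval.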
